A study of Mus musculus with 2 samples.

Results

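Gm44662 (ENSMUSG00000108546) is a mouse long non-coding RNA (lncRNA) annotated on the plus strand of chromosome 7, where it spans the hepcidin genes Hamp2 and Hamp and ends inside the transcription factor gene Usf2. It was taken by its gene identifier and is 1 of 614 known lncRNAs listed with a value in each of 2 liver libraries. It was singled out because its value differed between these libraries, so that difference is a description and no test is made of it. Total RNA was sequenced from C57BL/6 wild-type mice at postnatal week 27. This gave 1 library for a 60% high fat diet and 1 library for a normal diet, each fed over 23 weeks. The labels call the source hepatocytes while the extraction text describes removed, frozen liver, and they do not say whether animals were pooled. Of 20 marker genes of liver cell types, 0 had a row among the listed lncRNAs, so the labelled cell type was not checked. In bulk RNA of this kind, more cells of a type and more RNA per cell cannot be told apart.

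Hepcidin is a peptide hormone made mainly by hepatocytes. It limits the entry of iron into the blood by binding the iron exporter ferroportin, and its gene Hamp is induced through BMP and SMAD signalling and by interleukin 6 through STAT3. Mice carry a second hepcidin gene, Hamp2, from a tandem duplication next to Usf2. USF2 is a basic helix-loop-helix leucine zipper factor that binds E-box motifs, including those of glucose-responsive liver genes. The link between hepcidin and iron came from a line of Usf2 knockout mice that overloaded with iron. Whether loss of USF2 itself has that effect is not addressed here. Antisense lncRNAs share bases with the exons of a gene on the other strand, and how Gm44662 acts, if at all, is not addressed by these data.

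The annotated gene (GENCODE M21, build GRCm38) runs from chr7:30916983-30946824, a span of 29842 bases, with 3 exons of 412 bases in total, or 1.38% of the span. Exon 1 (chr7:30916983-30917138) has 156 bases and meets no exon of another gene. Exon 2 (chr7:30922524-30922630) has 107 bases, of which 89 (83.2%) lie opposite the last exon of Hamp2, all of them protein-coding there. Exon 3 (chr7:30946676-30946824) has 149 bases, of which 74 (49.7%) lie opposite a coding exon of Usf2. In all, 163 of the 412 exon bases (39.6%) face coding sequence. Hamp lies whole within the intron of 24045 bases between exons 2 and 3, as does Usf2-ps1, a Usf2 pseudogene, and shares no exon base with Gm44662. The 3 exons are shown because under this annotation they are the bases from which a read would be assigned to the lncRNA. The part opposite a coding exon is in capitals, 5′ to 3′ on the plus strand.
Gm44662 exon 1: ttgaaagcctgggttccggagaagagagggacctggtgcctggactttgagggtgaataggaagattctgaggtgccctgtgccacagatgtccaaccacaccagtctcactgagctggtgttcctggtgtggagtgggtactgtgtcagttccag
Gm44662 exon 2: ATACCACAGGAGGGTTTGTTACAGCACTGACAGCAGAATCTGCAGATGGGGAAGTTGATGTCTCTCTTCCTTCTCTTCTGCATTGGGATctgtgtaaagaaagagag
Gm44662 exon 3: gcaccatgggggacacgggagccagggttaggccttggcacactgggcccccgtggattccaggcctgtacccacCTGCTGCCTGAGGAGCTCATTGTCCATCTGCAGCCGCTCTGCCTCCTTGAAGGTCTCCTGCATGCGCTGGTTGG

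**Figure D1:**
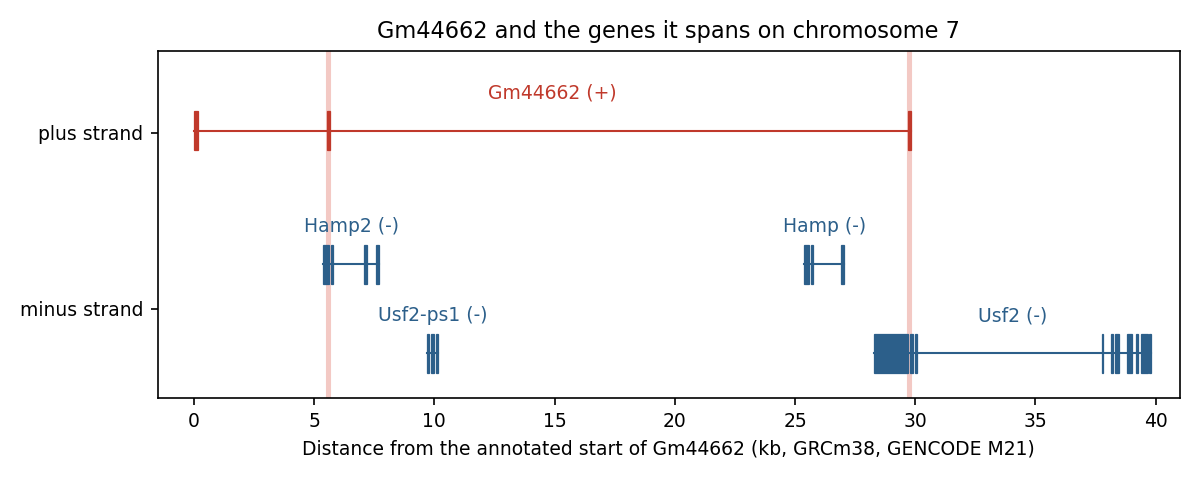
Exons (boxes) and introns (lines) of Gm44662 on the plus strand and of Hamp2, Usf2-ps1, Hamp and Usf2 on the minus strand, with all annotated transcripts of a gene merged, against distance in kb from the annotated start of Gm44662. The shaded bands are its exons 2 and 3, which meet exons of Hamp2 and Usf2, while Hamp lies within its intron.

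Part of Gm44662 also matches a transcript that it does not overlap. The 74 bases opposite Usf2 matched the reverse complement of the Usf2-ps1 transcript at 73 consecutive positions. Exon 1 had no match among the GENCODE transcripts of other genes at the search limit used, with 1 related gene left out of that list. The sources used here do not give the strand setting, the annotation counted or the read length. Without the strand, reads in the shared parts of exons 2 and 3 could belong to Gm44662 or to Hamp2 and Usf2, which cannot be told apart. The other parts of exons 2 and 3 lie opposite introns of Hamp2 and Usf2, so reads of unspliced transcripts there cannot be told apart either. The files do not say how many reads of Gm44662 fall in each exon. No value of Hamp, Hamp2 or Usf2 was analysed here, since the table lists lncRNAs.

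Gm44662 was higher in the high fat diet library. Its level was 6438 CPM (reads of the lncRNA scaled to a table total of 1000000) in the high fat diet library and 2403 CPM in the normal diet library, from 1246 and 582 recovered reads. It held 0.644% of the read pairs to which the table is scaled (95% exact Clopper-Pearson interval 0.594 to 0.696) against 0.240% (0.214 to 0.270). These intervals do not overlap, but a difference beyond counting error was not particular to Gm44662. The ratio of the levels was 2.68 (95% interval 2.33 to 3.09), a log2 ratio of 1.42 (1.22 to 1.63). Of 364 known lncRNAs with 20 or more reads in either library, 67 had a log2 ratio interval wholly above 0, Gm44662 among them. Intervals wholly below 0 were not counted. At the share of the normal diet library, the high fat diet library would have held 465 reads in place of 1246. The intervals given here cover counting error only. They may be too narrow even for that, since read pairs without molecular identifiers need not be independent molecules. With 1 library per diet there is no measure of the spread between animals. The authors' deposited fold change is also 2.68, but it is the ratio of the same 2 levels and so no separate check. Their mark of the lncRNA as higher and significant also rests on 1 library per diet.

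A call of higher or lower required a 2-fold difference in level and 20 or more reads in 1 of the libraries, the one with the higher level. Of 364 known lncRNAs that reached the read minimum, 28 (7.69%) were called higher in the high fat diet library, Gm44662 among them, and 30 (8.24%) lower. The median log2 ratio over the 364 was -0.01. Gm44662 was chosen on this contrast, so nothing is read from its call against that background. By number of reads it stood at place 29 of 614 in the high fat diet library and place 65 in the normal diet library.

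**Figure D2:**
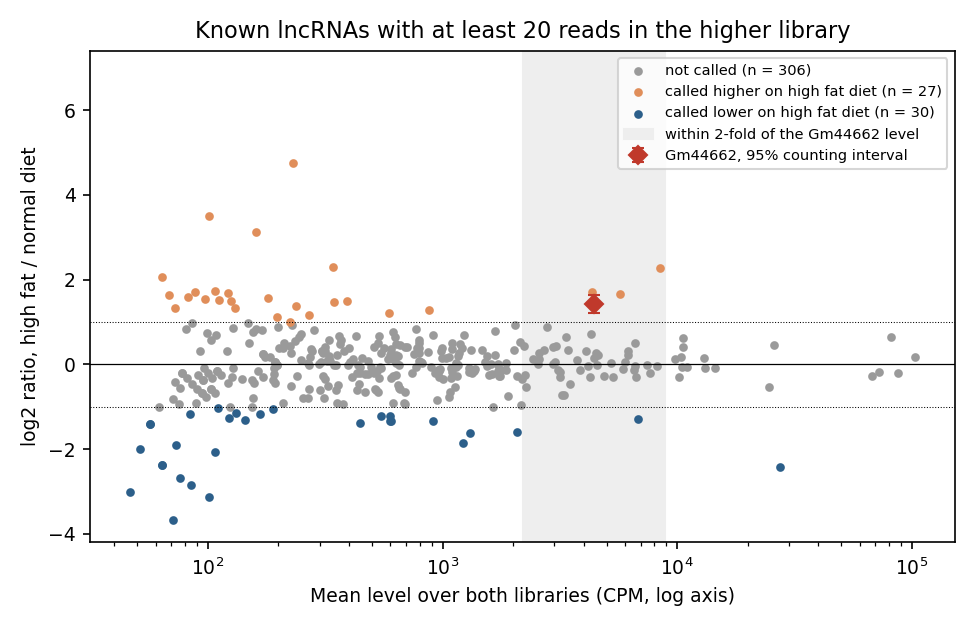
Log2 ratio of the high fat diet to the normal diet level against the mean level in CPM (log axis) for the 364 known lncRNAs that reached the read minimum, coloured by call, with dotted lines at 2-fold and the band within 2-fold of the level of Gm44662 shaded. Gm44662, at a log2 ratio of 1.42 with its 95% counting interval, lies above most lncRNAs of its level, and most of the ratios beyond 2-fold belong to lncRNAs of lower level.

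To compare lncRNAs measured with similar counting precision, Gm44662 was set beside those of like level, with a mean level within 2-fold of its 4421 CPM (2210 to 8841 CPM). There were 50 with Gm44662 included. Of these, 4 (8%) were called higher, 1 (2%) was called lower, and 40 differed by less than 1.5-fold. The interval of the log2 ratio lay wholly above 0 for 19 of the 50, and those wholly below 0 were not counted. Without Gm44662, the other 49 had a median log2 ratio of 0.02 and ranged from -1.28 to 2.27. Gm44662 took place 4 of 50 in the order of ratios.

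The 3 lncRNAs above it were Gm28592, Gm15713 and Gm9968. Gm28592 lies opposite Phlda1, a pleckstrin homology-like domain gene, and had 2712 reads on the high fat diet and 702 on the normal diet. Its log2 ratio of 2.27 (95% interval 2.10 to 2.45) lies wholly above the interval of Gm44662. Gm15713 had 1284 reads against 492 (1.71, 1.49 to 1.93) and was also among the 5 lncRNAs nearest to Gm44662 in mean level. Gm9968, opposite exon bases of the zinc finger repressor gene Zbtb20, had 1672 against 660 (1.66, 1.48 to 1.85). Gm15713 and Gm9968 lie near each other on the minus strand of chromosome 16, with starts at 43410518 and 43345887. The intervals of Gm15713 and Gm9968 overlap that of Gm44662, so the order of these 3 is not settled by the read numbers.

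Below Gm44662 came a gap. The next lncRNA in the order, Gm11342, had 702 reads against 478 and a log2 ratio of 0.88 (0.64 to 1.12), and its interval ends below that of Gm44662. Gm43549 followed with 1038 against 790 (0.72), and Malat1, a nuclear speckle lncRNA, with 792 against 630 (0.65). Gm15713, Gm9968, Gm11342, Gm43549 and Malat1 are the 5 nearest to Gm44662 in log2 ratio among those of like level. This likeness rests on 2 libraries.

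At the other end of the order stood 4732463B04Rik, opposite Acot4 and Acot3, which encode acyl-CoA thioesterases, with 772 reads against 2340 (log2 ratio -1.28). Next to it were C330002G04Rik, opposite Trpm3, at -0.72 and Gm26841, opposite H13, at -0.71, neither of them called. The 5 nearest in mean level were Gm15713, Gm43549, Gm44739 (-0.01), 2610020C07Rik (0.28) and Gm26722 (0.16), the last opposite the chromatin factor gene Rbbp4. Of these 5, Gm15713 was called.

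**Figure D3:**
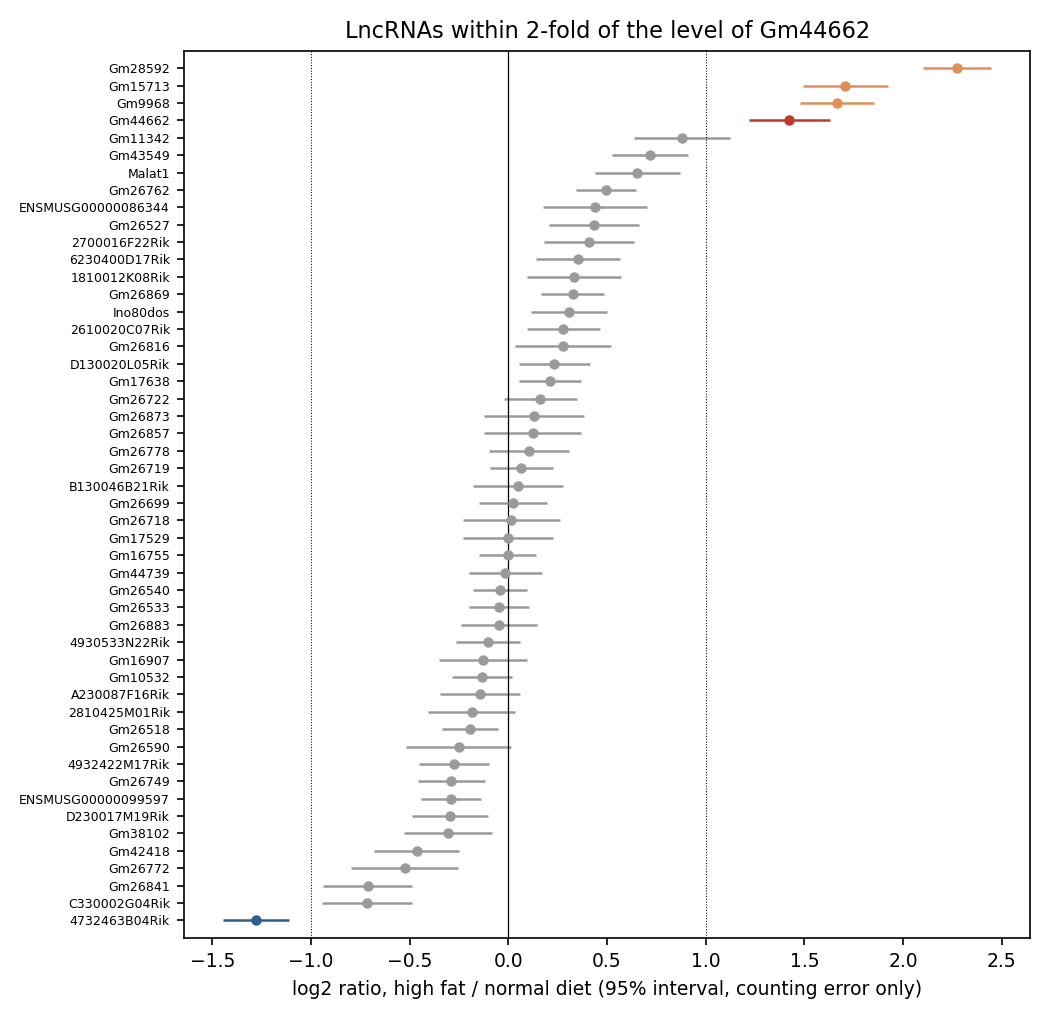
Log2 ratios (points) with 95% counting intervals (bars) of the 50 known lncRNAs within 2-fold of the mean level of Gm44662, ordered by ratio, with Gm44662 in red, other calls of higher in orange and of lower in blue, and dotted lines at 2-fold. Gm44662 is the 4th from the top, and the next below it, Gm11342, is at 0.88.

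Several of these lncRNAs could share reads with copies elsewhere. At 95% identity or more over at least 50 bases outside genes that they overlap, Malat1 matched 179 genes, Gm44739 41, C330002G04Rik 19, Gm43549 6 and 4732463B04Rik 4. Gm44662 matched 1, the pseudogene Usf2-ps1, and Gm28592, Gm15713, Gm9968 and Gm11342 matched 0.

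A position opposite exons of a protein-coding gene was common at this level. Leaving out Gm44662, 35 of the other 49 lncRNAs shared at least 50 exon bases with exons of protein-coding genes on the other strand. Untranslated parts of those exons were counted too, and overlap with coding sequence alone was not compared. These 35 had a median log2 ratio of 0.02, with 2 called higher and 1 lower. The remaining 14, which include 2 without a position in the annotation, had a median of 0.16, with 1 called higher and 0 lower. In the whole table, 177 lncRNAs with at least 50 such shared bases reached the read minimum, and 11 (6.21%) were called higher. Whether reads of Hamp2 or Usf2 entered the value of Gm44662 was not tested.

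Gm44662 was short for its level. Among the 48 lncRNAs of like level with an annotated length, 0 were shorter than its 412 bases, and their median was 2500 bases. Counted per length, it had 3024 reads per kb of exon in the high fat diet library, place 7 of 606, and 1413 reads per kb in the normal diet library, place 16. The median over the listed lncRNAs was 16.8 and 19.8 reads per kb, and over those of like level 301 and 345. In the like-level set, only Gm28592 was denser in the high fat diet library, and only Gm16755 and Gm26540 were denser in the normal diet library.

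Other short lncRNAs had far fewer reads. Gm44662 had the most reads in both libraries among the 39 listed with up to 500 exon bases. Gm44036 came next in the high fat diet library, with 218 reads against 168, and Gm37027 in the normal diet library, with 104 against 204. Of the 15 other short lncRNAs that reached the read minimum, 3 were called higher and 2 lower, and their median log2 ratio was 0.02. Over all 364 that reached it, 28 (7.69%) were called higher and 30 (8.24%) lower. A fragment needs room on a transcript, so reads per kb of a gene of this length depend on fragment size, which the sources used here do not give.

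**Figure D4:**
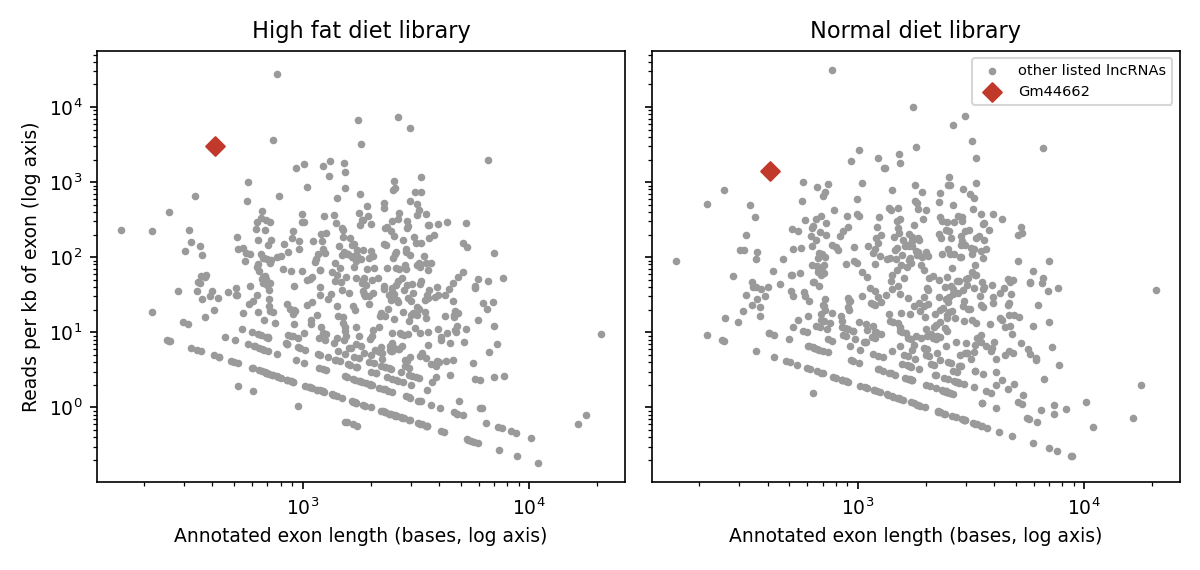
Reads per kb of exon (log axis) against annotated exon length in bases (log axis) for the 606 listed known lncRNAs with a position, in the high fat diet library (left) and the normal diet library (right). Gm44662 (red), at 412 bases, has 3024 and 1413 reads per kb, above every other listed lncRNA of up to 500 bases in both libraries.

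The difference was not shared by all listed lncRNAs of this stretch of chromosome 7. The nearest listed one by start position, Gm26610, lies 0.267 Mb to the left and had 6 reads in each library, too few to compare. To the right, Gm26762, opposite the glycolytic enzyme gene Gpi1 at 3.31 Mb, had 1490 reads against 1324. Its log2 ratio, 0.49 (0.34 to 0.65), was below the interval of Gm44662. Gm35665, at 4.22 Mb, had 98 against 44 and was called higher, at 1.48 (0.73 to 2.28), an interval that holds that of Gm44662. Gm26790, opposite Zfp507 at 4.86 Mb, had 344 against 472 (-0.13). Of the 4 listed lncRNAs next to Gm44662 on each side, 8 in all, the others were Gm12756, Gm26707, Gm29918 and Gm26600, which had at most 10 reads in either library. On the whole of chromosome 7, 24 of the 50 listed lncRNAs reached the read minimum, and 2 of these (8.33%), Gm44662 and Gm35665, were called higher.

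Other lncRNAs at iron genes could not be set beside Gm44662. Of 39 genes of iron balance, among them the hepcidin regulators Hfe, Hjv, Tfr2, Bmp6 and Tmprss6 and the exporter gene Slc40a1, 1 shared exon bases with a listed lncRNA, namely Hamp2 with Gm44662. Of 14 genes of the USF family, its liver targets and neighbours, 1 did, Usf2 with Gm44662 again. None of the 39 or the 14 has a row of its own in the table (0 and 0).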

How the data were processed

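Known lncRNAs were read from the authors' deposited table, which holds CPM, the reads of an lncRNA scaled to a table total of 1000000 and called normalized per the file headers. The authors' table also holds a fold (the ratio of the high fat diet to the normal diet value), its log2 and p-values. The deposited p-values were not used, since 1 library per diet gives no spread between animals. The tools named per the submitters' processing notes are HISAT2, HTSeq and DESeq, and the build is mm8. The sources used here do not give versions, roles, annotation or strand setting. The files hold no positions, and 606 of the 614 identifiers were matched to GENCODE M21 on GRCm38, a build other than mm8. All positions, lengths and transcript sequences come from GENCODE M21, and the exons counted by the authors may differ.

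Dividing each CPM value by the smallest of its column, taken as 1 read, gave whole numbers for 100% of values (tolerance 1e-06), with scaling totals (1000000 divided by the value of 1 read) of 193538 reads for the high fat diet and 242194 for the normal diet. The listed lncRNAs sum to slightly less, 193260 and 241812 reads, and shares and ratios use the scaling totals. These totals do not show the depth of the whole libraries. No number above 1 was odd, so 2 reads were taken as 1 pair and intervals were computed on pairs. A value of 1 read, found for 7 and 1 lncRNAs, was taken as 0 pairs, with a floor of 3 pairs for its ratio. Log2 ratios used Python 3.11.15 and scipy 1.17.1, with exact intervals from the binomial split of pairs. An exact binomial test of pairs, run as an alternative count test that compares the libraries and not the diets, gave 15 lncRNAs higher and 16 lower by at least 2-fold with a Benjamini-Hochberg value below 0.05. The call rule was tested on simulated data. Similar transcripts were searched with BLAST 2.17.0 on both strands (E-value up to 1e-05 for Gm44662, and at least 95% identity over 50 bases for all listed).

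Named lncRNAs are Gm44662, the 5 nearest in ratio, 3 highest and 3 lowest of like level, the 5 nearest in level, 4 listed neighbours on each side on chromosome 7, and any lncRNA sharing exons with 2 gene lists. Short and dense lncRNAs were named after their values were seen. The lncRNA and the lists were chosen with earlier results of these data known. Alternatives covered scaling, pseudocount, read minimum, fold and the like-level window. A sequence comparison of exon 2 with a related gene is not reported here.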

Additional observations from a re-analysis of the deposited data

How the results depend on the processing

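The log2 ratio of Gm44662, 1.42, ranged from 1.41 (median-ratio scaling) to 1.45 (totals without the 5 most abundant lncRNAs) over 6 alternatives of scaling, pseudocount and counting unit, all within its interval. On single reads the interval was 1.28 to 1.57. Median-ratio scaling moved all ratios by -0.01. Of like-level lncRNAs, 4 were called higher, 7 at 1.5-fold and 1 at 4-fold, where Gm44662 is no longer called. Its place in the order of ratios was 3 of 35 within 1.5-fold of its level and 4 of 104 within 4-fold. It was 4 of 75 by the normal diet level and 3 of 36 among those opposite exons of protein-coding genes. Known lncRNAs called higher numbered 28, 78 without a read minimum, 8 with 100 reads, 58 at 1.5-fold and 6 at 4-fold. By settings added after seeing the data they numbered 15 with the exact binomial test and 17 without those opposite exons of protein-coding genes. Among the 8 neighbours on chromosome 7, 4 on each side, 1 was called higher, and 3 without a read minimum. These counts move because the settings alter which lncRNAs can pass. No paired analysis was possible because the series holds 1 library per diet, and for the same reason no library could be left out. Depth limits most neighbours, 5 of 8 of which stayed below 20 reads.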

Other observations

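Gm44662 was richer in G and C than most listed lncRNAs, at 56.1% of its transcript against a median of 47.6% over the 606 with a transcript sequence and 47.2% at like level. The 37 other lncRNAs within 2 percentage points of its GC content that reached the read minimum had a median log2 ratio of -0.07, with 1 called higher on the high fat diet and 1 lower. Among all 364 that reached it, 28 (7.69%) were called higher and 30 (8.24%) lower. A link of the ratios with GC content was not tested. The authors also deposited a table of 272 numbered lncRNAs without gene names, scaled separately. It held 0 entries with the same reads as Gm44662 in both libraries and 0 within 2-fold of its reads in both.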
